A study of Mus musculus with 42 samples.

Results

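The 9 genes described here encode the core chaperones of the cytosol and of the mitochondrial matrix that are grouped as heat shock genes: Hspa1a, Hspa1b, Hspa8, Hsph1, Dnajb1, Hsp90aa1, Hsp90ab1, Hspd1 and Hspe1. They were taken by symbol from a table of raw counts for 37310 gene identifiers in 42 libraries, and all 9 were found and passed the filter on low counts. Hspa1a passed it only through the libraries treated with lipopolysaccharide for 2 h, where it was highest. The libraries were stranded, ribodepleted total RNA-seq of bone-marrow-derived macrophages (BMDM), which are macrophages grown from mouse marrow in medium conditioned by L929 cells. Each of 14 groups held 3 libraries. The groups combined a genotype with a condition. Genotype KO stood for myeloid deletion of Irf5, made by crossing mice with a floxed Irf5 gene to LysM-Cre mice, in which Cre is driven by the Lyz2 locus, and WT for wild type, and the study's methods describe male animals on a C57BL/6 background. The 7 conditions were Control (0, 2 or 24 h), palmitate (2 or 24 h) and lipopolysaccharide (2 or 24 h). Lipopolysaccharide (LPS) is a bacterial cell wall product that activates Toll-like receptor signalling. Palmitate, the saturated fatty acid used to model lipotoxicity, was dissolved in ethanol and diluted in fatty acid-free albumin, and the labels do not say whether Control cells received this vehicle. Nothing in the labels states that the 3 libraries of a group came from separate animals or cultures, so the p-values measure only the spread between these libraries, which may be technical.

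Heat shock proteins bind unfolded stretches of other proteins and help them to fold, refold or be degraded. HSP70 proteins work in cycles with a J-domain partner of the HSP40 class, which delivers the client and starts ATP hydrolysis, and with a nucleotide exchange factor such as the HSP110 proteins, and clients such as kinases and receptors are then passed to HSP90. In the mitochondrial matrix, HSP60 forms a barrel closed by an HSP10 lid. Heat, oxidants and misfolded protein release the transcription factor HSF1, which binds heat shock elements, that is inverted repeats of a short unit, and induces many of these genes. Among the 9, Hspa1a and Hspa1b encode the inducible HSP70, Hspa8 the constitutive HSP70 (HSC70), Hsph1 an HSP110, Dnajb1 an HSP40, Hsp90aa1 and Hsp90ab1 the inducible and the constitutive cytosolic HSP90, and Hspd1 and Hspe1 HSP60 and HSP10.

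The start regions of 6 of the 9 genes were found among the RefSeq promoter windows of GRCm38.p6, which span 250 bases before to 50 bases after a start (9 windows in all); those of Hspa8, Hsp90aa1 and Hsp90ab1 were not among them. They were searched on both strands for 2 adjoining inverted units of the heat shock element (GAANNTTC or TTCNNGAA) and for 3 units (GAANNTTCNNGAA or TTCNNGAANNTTC, which contain the 2-unit form). Of 32851 RefSeq windows 15.1% held the 2-unit form and 0.603% the 3-unit form. Among the members, 5 genes held the 2-unit form and 3 genes the 3-unit form, with none in either window of Dnajb1. A match is a description of the letters and not a binding site. The 250 bases before the start of Hspa1a (chr17:34972157-34972406, minus strand) and of Hspa1b (chr17:34959239-34959488, minus strand) are shown because the pair responded most to LPS and because reads cannot always be told apart between them. The 2 windows carried the same base at 296 of 300 positions (98.7%), with 3 of the 4 differences before the start. The single match, at position -104 from the start in both, is in capitals.
Hspa1a: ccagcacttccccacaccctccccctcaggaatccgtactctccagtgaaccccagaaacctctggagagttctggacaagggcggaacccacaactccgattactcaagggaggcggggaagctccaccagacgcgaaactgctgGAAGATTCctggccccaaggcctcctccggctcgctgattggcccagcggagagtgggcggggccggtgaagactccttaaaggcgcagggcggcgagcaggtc
Hspa1b: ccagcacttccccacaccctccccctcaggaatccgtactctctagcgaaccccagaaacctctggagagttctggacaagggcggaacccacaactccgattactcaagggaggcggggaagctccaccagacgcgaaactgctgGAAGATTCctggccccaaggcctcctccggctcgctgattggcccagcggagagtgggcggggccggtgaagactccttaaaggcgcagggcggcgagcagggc
Shorter stretches of at most 30 bases are given for the genes with a 3-unit match, again with the match in capitals. Those of Hsph1 lie at chr5:149636351-149636380 and chr5:149636280-149636308 on the minus strand, the first with the 2-unit and the second with the 3-unit form.
Hsph1, upstream match: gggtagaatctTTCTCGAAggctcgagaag
Hsph1, downstream match: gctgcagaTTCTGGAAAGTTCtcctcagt
Hspd1 and Hspe1 are neighbours on chromosome 1, transcribed in opposite directions, and the same 30 bases at chr1:55088053-55088082 lie before the start of Hspe1 and inside Hspd1, in windows of both genes, read here on the plus strand for Hspe1 and on the minus strand for Hspd1.
Hspe1: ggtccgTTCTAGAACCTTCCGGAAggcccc
Hspd1: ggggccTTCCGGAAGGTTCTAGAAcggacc
This stretch holds overlapping matches, each of them shared by the 2 genes.

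In the GENCODE annotation of GRCm38 (mm10), Hspa1a (ENSMUSG00000091971) spans chr17:34969190-34972156 and Hspa1b (ENSMUSG00000090877) chr17:34956436-34959238, both on the minus strand. Hspa8 (ENSMUSG00000015656) lies at chr9:40800984-40810087 on the plus strand, Hsph1 (ENSMUSG00000029657) at chr5:149614287-149636376 on the minus strand and Dnajb1 (ENSMUSG00000005483) at chr8:83608193-83612653 on the plus strand. Hsp90aa1 (ENSMUSG00000021270) is at chr12:110690605-110702728 and Hsp90ab1 (ENSMUSG00000023944) at chr17:45567775-45573271, both on the minus strand. Hspd1 (ENSMUSG00000025980, chr1:55077835-55088243, minus strand) and Hspe1 (ENSMUSG00000073676, chr1:55088132-55091307, plus strand) overlap by their exons, and whether counting used the strand is not given in the sources used here. Sequence shared with other genes limits how exactly reads can be assigned. Of all 100-base windows of the longest coding transcript, 49.9% of those of Hspa1b occurred in Hspa1a and 47.1% of those of Hspa1a in Hspa1b. Copies elsewhere held 63.4% of the windows of Hspa8, 47.5% of those of Hsp90aa1, 26.9% of those of Hspd1 and 22.4% of those of Hspe1, against 0 for Hsph1, Dnajb1 and Hsp90ab1. In all, 56.5% of the windows of Hspa1a occurred in some other gene, and an exon of Hspa1a overlaps Gm20481, which had no counts. The values of Hspa1a and Hspa1b are therefore uncertain as a split, and their sum is given beside them. How reads that match several genes were counted is not given in the sources used here, so the sum may also lack reads.

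The total count per library was 2848793 to 7743442 (median 5625399), so that 3 counts stood for 0.387 to 1.05 CPM (counts scaled to library size). The labels were checked first. Irf5 was not lower in the libraries labelled KO: it was higher in 7 of 7 conditions, called in 4 of them, with log2 differences of 0.04 to 0.47 (210 to 389 CPM in WT, 267 to 430 CPM in KO). Counts over the whole gene need not show a deletion of part of it. Lyz2, the locus that carries Cre, was lower in KO in 7 of 7 conditions, by log2 differences of -1.11 to -0.51. The genotype is therefore given as labelled throughout, with WT and KO standing for the libraries labelled so, and every direction between them rests on these labels. The summed level of 8 macrophage markers, Lyz2 among them, was 10078 to 22927 CPM in the 42 libraries. By comparison, 6 T or NK cell markers summed to at most 2.60 CPM, 6 erythroid markers to at most 0.516 CPM (Hbb-bs was at 0 in every library) and 5 B cell markers to at most 14.03 CPM. The sum of 6 fibroblast markers (Col1a1 and others) ran from 0 to 320 CPM. RNA was measured in bulk, so fewer cells of a type and less RNA per cell cannot be told apart.

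The 9 genes together took 0.377 to 0.485% of all counts of a library. Scaled to exon length and library size (RPKM, mean over the 42 libraries), the level was highest for Hsp90ab1 (582), Hspa8 (370) and Hsp90aa1 (140), then Hspd1 (39.8), Hspe1 (31.05), Hsph1 (8.40) and Dnajb1 (7.54), and lowest for Hspa1b (1.09) and Hspa1a (0.522). The constitutive chaperones thus lay far above the inducible HSP70 genes on this scale of level per length. All further levels of genes are CPM scaled by TMM (trimmed mean of M-values). Sums over the marker, immediate early and proliferation lists are CPM of the library total. Hspa1a ran from 0.180 to 6.89 CPM (1 to 34 counts) and Hspa1b from 0.397 to 8.51 CPM (3 to 53 counts), with median coefficients of variation within a group of 29.7% and 36.5%. The abundant genes were tight: the same median was 2.60% for Hspa8, 2.66% for Hsp90ab1 and 4.27% for Hsp90aa1, and 5.20 to 14.5% for the other 4 genes. The highest group mean was 8.41 times the lowest for Hspa1a and 7.40 times for Hspa1b, but 1.25 to 1.82 times for the other 7 members.

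The groups at the top differed between members. Hspa1a (4.97 ± 0.88 CPM, SD, n = 3), Hspa8 (2003 ± 51.3 CPM) and Hsp90aa1 (638 ± 27.8 CPM) were highest in WT LPS 2 h, followed each time by KO LPS 2 h, whose range overlapped it. Hspa1b was highest in KO LPS 2 h (6.81 ± 2.03 CPM), with KO LPS 24 h (6.70 ± 1.07 CPM) and WT LPS 2 h (6.60 CPM) within its spread. Hsph1 (83.5 ± 2.45 CPM) and Hspe1 (58.7 ± 3.69 CPM) were highest in WT LPS 24 h, and Hsp90ab1 (2104 ± 62.7 CPM) and Dnajb1 (29.7 ± 0.56 CPM) in KO LPS 24 h. Hspd1 was highest in WT Control 0 h (118 ± 3.71 CPM). LPS 2 h held the lowest group means of Hsph1 (45.8 ± 5.51 CPM), Hspd1 (90.4 ± 5.10 CPM) and Hspe1 (36.6 ± 15.7 CPM), in each case in KO with WT LPS 2 h next.

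**Figure D1:**
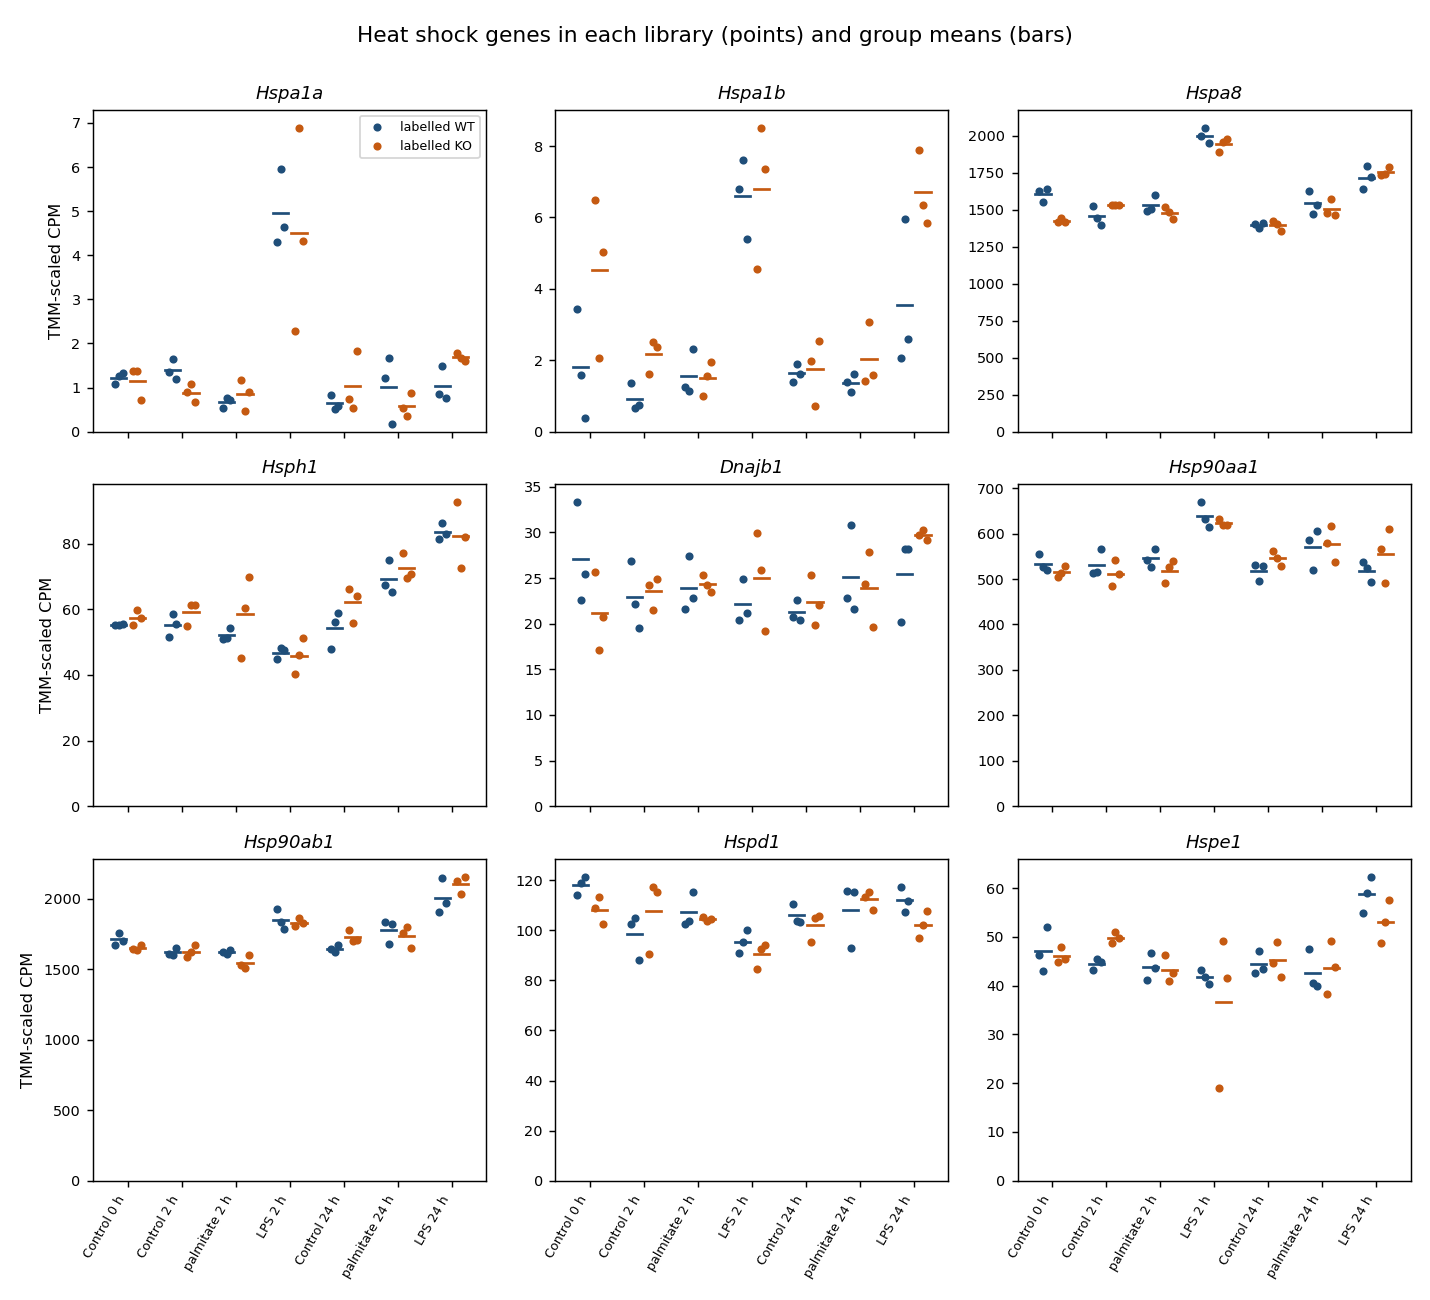
Level of each of the 9 heat shock genes (y axis, TMM-scaled CPM from 0) in the 7 conditions (x axis), with 3 points per group for the libraries and a bar for the group mean, WT in blue and KO in orange. Hspa1a stands at 2.28 to 6.89 CPM in the 6 LPS 2 h libraries, above all other libraries, whereas Hspa8, Hsp90aa1 and Hsp90ab1 move by a small part of a high level.

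After 2 h of LPS the inducible HSP70 genes rose most, and HSC70 and both HSP90 genes rose by less. In WT, 5 of the 9 members passed the test, all of them higher, against 23.1% of all genes tested in this comparison. In KO, 8 of 9 passed, 5 higher and 3 lower, against 23.9%. The 5 that rose were the same genes in both genotypes: Hspa1a, Hspa1b, Hspa8, Hsp90aa1 and Hsp90ab1. The median log2 fold change over the 9 members was 0.19 in WT and 0.17 in KO, beside -0.01 over all genes in each.

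Hspa1a stood at 1.35, 1.65 and 1.19 CPM in the WT Control 2 h libraries and at 4.29, 5.96 and 4.64 CPM after LPS. In KO it stood at 0.905, 1.07 and 0.679 CPM and then at 2.28, 6.89 and 4.33 CPM. All LPS libraries lay above all Control libraries in both genotypes, with 12 to 29 counts in WT and 6 to 34 in KO. Hspa1a passed the filter on low counts only through the LPS 2 h libraries, so its being tested depended on its level in them. Both of its calls here were kept with no filter. By edgeR's quasi-likelihood test Hspa1a was 3.55-fold higher in WT (log2 scale 1.83, SE 0.46, adjusted p = 0.00184) and 5.19-fold higher in KO (log2 scale 2.38, SE 0.50, adjusted p = 0.000158). Hspa1b rose from 1.35, 0.662 and 0.741 CPM to 6.80, 7.60 and 5.39 CPM in WT. In KO its Control values were 1.63, 2.51 and 2.38 CPM and its LPS values 4.56, 8.51 and 7.35 CPM. The groups did not overlap here either, and Hspa1b was 7.16-fold higher in WT (log2 scale 2.84, SE 0.51, adjusted p = 1.55e-05) and 3.19-fold higher in KO (log2 scale 1.67, SE 0.45, adjusted p = 0.00349). As the split between these genes is uncertain, the summed counts were tested as a single gene. The sum was 2.32 ± 0.39 CPM in WT Control 2 h and 11.6 ± 1.81 CPM after LPS, which is 5.00-fold higher (log2 scale 2.32, SE 0.37, adjusted p = 1.26e-06). In KO it was 3.06 ± 0.52 CPM and 11.3 ± 4.30 CPM, which is 3.78-fold higher (log2 scale 1.92, SE 0.35, adjusted p = 2.3e-05).

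**Figure D2:**
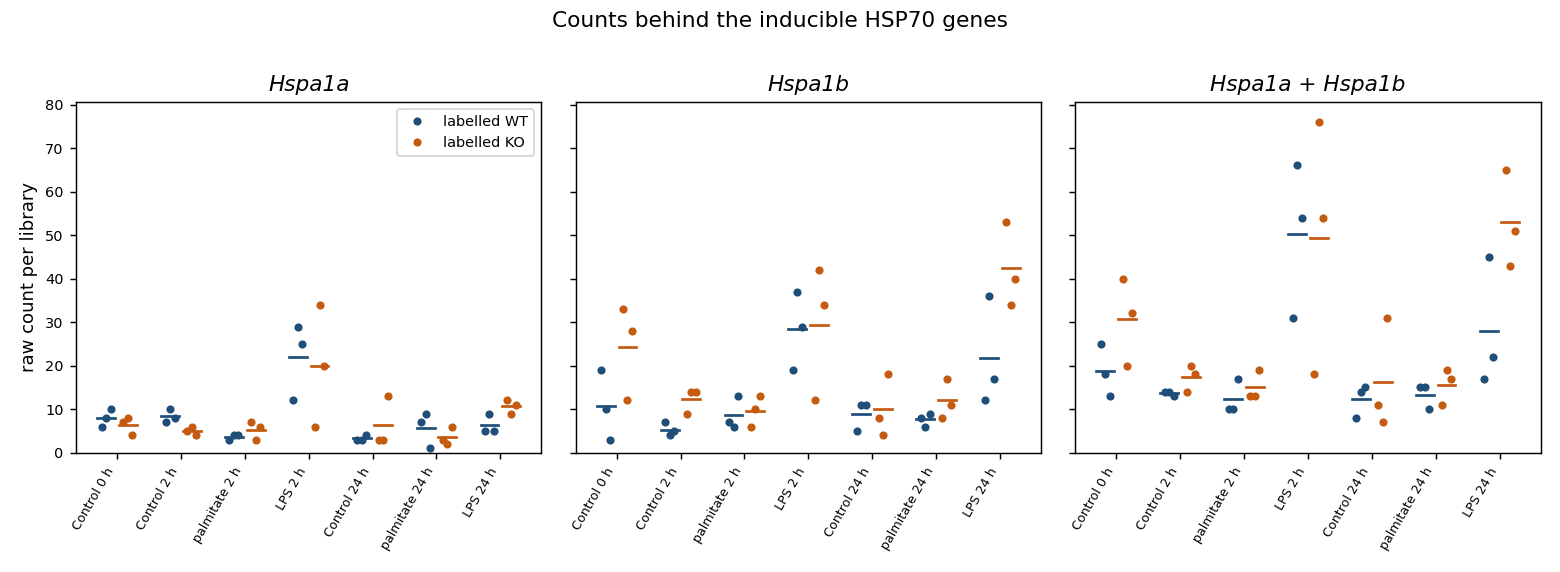
Raw counts per library (y axis) of Hspa1a, Hspa1b and their sum in the 7 conditions (x axis), as points with a bar for the mean, WT in blue and KO in orange. The counts are low, 1 to 34 for Hspa1a and 3 to 53 for Hspa1b, and are not scaled for depth, which was lowest in an LPS 2 h library (2848793 counts).

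Hspa8, the constitutive HSP70, stood at 1527, 1447 and 1401 CPM in WT Control 2 h and at 2002, 2055 and 1952 CPM after LPS 2 h. In KO the values were 1534, 1531 and 1532 CPM against 1893, 1961 and 1981 CPM. Neither pair of groups overlapped, and Hspa8 was 1.37-fold higher in WT (log2 scale 0.46, SE 0.05, adjusted p = 2.92e-11) and rose by 0.34 on the log2 scale in KO (adjusted p = 5.77e-08). Hsp90aa1, the inducible HSP90, rose from 513, 515 and 567 CPM to 669, 632 and 614 CPM in WT and from 484, 543 and 510 CPM to 632, 619 and 619 CPM in KO. Its log2 fold change was 0.26 (adjusted p = 0.00151) in WT and 0.28 (adjusted p = 0.00057) in KO, with no overlap. Hsp90ab1 went from 1611, 1597 and 1648 CPM to 1929, 1833 and 1783 CPM in WT (log2 fold change 0.19, adjusted p = 0.00212) and from 1584, 1619 and 1671 CPM to 1802, 1863 and 1826 CPM in KO (0.17, adjusted p = 0.0056). The 2 HSP90 calls depend on scaling. With library totals and no scaling factor, which moved the median of all genes by -0.17 in WT and -0.19 in KO, Hsp90aa1 stood at 0.10 and 0.11 and Hsp90ab1 at 0.03 and -0.0026, none of them past the threshold, while Hspa8 (0.30 and 0.17) and the inducible HSP70 genes still passed. Without KO Control 2 h library 1, Hsp90ab1 in KO was at 0.14 (adjusted p = 0.0618), and its KO call was also lost with no filter on low counts.

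Hsph1, an HSP110 nucleotide exchange factor, was at 55.01, 61.2 and 61.2 CPM in KO Control 2 h and at 40.2, 46.0 and 51.3 CPM after LPS. It fell by 0.35 on the log2 scale (SE 0.11, adjusted p = 0.014) with no overlap. In WT the values were 51.7, 58.6 and 55.6 CPM against 44.7, 48.1 and 47.5 CPM, likewise without overlap, but the log2 fold change of -0.24 did not pass (adjusted p = 0.121; with library totals and no scaling factor -0.40, adjusted p = 0.00428). The KO call was lost without KO LPS 2 h library 1 (-0.30, adjusted p = 0.0658). The mitochondrial pair passed in KO with overlapping groups. Hspd1 was at 90.5, 117 and 115 CPM in Control and at 84.7, 92.4 and 94.3 CPM after LPS (log2 fold change -0.24, adjusted p = 0.0305), and Hspe1 at 48.7, 51.0 and 49.7 CPM against 18.98, 49.2 and 41.5 CPM (-0.37, SE 0.14, adjusted p = 0.0395). The low Hspe1 value belonged to KO LPS 2 h library 1, the shallowest of all, and without it the log2 fold change was -0.15 (adjusted p = 0.413). Without KO Control 2 h library 1, 2 or 3 Hspe1 was at -0.40, -0.37 and -0.39 with adjusted p = 0.0534, 0.0812 and 0.0676. The call of Hspd1 was lost without KO Control 2 h library 2 (-0.19) or 3 (-0.20) and without KO LPS 2 h library 1 (-0.22) or 2 (-0.26), with adjusted p = 0.056 to 0.152. Fitted on only the libraries compared, neither Hspd1 (adjusted p = 0.111) nor Hspe1 (adjusted p = 0.233) passed. In WT, Hspd1 (log2 fold change -0.04) and Hspe1 (-0.10) did not pass. Dnajb1, the HSP40 partner, was at 20.4, 24.9 and 21.2 CPM in WT LPS 2 h against 26.9, 22.2 and 19.6 CPM in Control, and neither genotype passed (-0.03 and 0.06).

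Other gene groups moved in the same libraries. The summed level of 10 immediate early genes was 1964 to 2090 CPM in WT LPS 2 h and 1704 to 2040 CPM in KO, against 1115 to 1180 CPM and 1134 to 1170 CPM in Control 2 h. That of 12 proliferation genes was 679 to 906 CPM and 889 to 1073 CPM, against 348 to 579 CPM and 495 to 600 CPM. In WT alone the ranges of further lists separated: macrophage markers were at 12930 to 13857 CPM after LPS against 14357 to 14996 CPM, granulocyte precursor markers at 43.9 to 69.8 CPM against 20.8 to 37.5 CPM, fibroblast markers at 0.333 to 0.647 CPM against 1.16 to 58.3 CPM and T or NK cell markers at 1.29 to 2.16 CPM against 0 to 0.770 CPM. The part of these groups in the result was not tested. KO LPS 2 h library 1 stood apart from its group, where chi-square divided by its degrees of freedom was 9.32 and 7.76 against the other libraries, which were at 2.94 against each other. Without it the KO log2 fold change of the sum of Hspa1a and Hspa1b was 2.14 (adjusted p = 5.33e-06).

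At 24 h of LPS, Hspa8 and Hsp90ab1 were again higher in both genotypes, now together with Hsph1. In WT, 4 of 9 passed, all higher, against 39.5% of all genes tested: Hspa8, Hsph1, Hsp90ab1 and Hspe1. In KO, 5 of 9 passed, all higher, against 40.9%: Hspa1b, Hspa8, Hsph1, Dnajb1 and Hsp90ab1. The members' share was thus near the share of all genes, though the median log2 fold change of the 9 was 0.30 in WT and 0.33 in KO, beside -0.01 over all genes.

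Outside the Hspa1a and Hspa1b pair, Hsph1 had the largest log2 fold change in WT at 24 h, and in KO it stood level with Dnajb1. It stood at 48.0, 56.2 and 59.0 CPM in WT Control 24 h and at 81.5, 86.2 and 82.8 CPM after LPS (log2 fold change 0.60, SE 0.10, adjusted p = 2.09e-06, 1.52-fold). In KO it stood at 66.3, 56.0 and 64.0 CPM and at 92.6, 72.6 and 82.1 CPM (0.42, adjusted p = 0.000555), again with no overlap. Hspa8 rose from 1405, 1374 and 1414 CPM to 1639, 1795 and 1719 CPM in WT (0.30, adjusted p = 8.63e-07) and from 1422, 1405 and 1358 CPM to 1733, 1746 and 1788 CPM in KO (0.33, adjusted p = 7.97e-08). Hsp90ab1 rose from 1641, 1623 and 1670 CPM to 1902, 2147 and 1972 CPM in WT (0.29, adjusted p = 2.37e-06) and from 1779, 1697 and 1706 CPM to 2124, 2034 and 2154 CPM in KO (0.28, adjusted p = 2.62e-06). All LPS libraries of these 3 genes lay above the Control libraries of their genotype. Hsp90aa1, which had risen at 2 h, was at 536, 525 and 495 CPM against 531, 495 and 529 CPM in WT, and did not pass in either genotype (log2 fold change 0.00 in WT).

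Hspe1, the HSP10 lid, rose in WT from 42.7, 47.1 and 43.4 CPM to 54.9, 58.9 and 62.3 CPM (log2 fold change 0.40, SE 0.13, adjusted p = 0.00972, 1.32-fold). In KO it was at 44.7, 49.0 and 41.8 CPM against 48.8, 53.0 and 57.5 CPM, overlapping groups that did not pass (0.24, adjusted p = 0.14). Its partner Hspd1 did not pass in either genotype, with 117, 107 and 112 CPM in WT LPS 24 h against 111, 104 and 103 CPM in Control. Hspa1b rose in KO from 1.99, 0.729 and 2.55 CPM to 7.90, 6.35 and 5.86 CPM (1.90, SE 0.45, adjusted p = 0.000521, 3.73-fold), with 34 to 53 counts per LPS library. In WT it was at 1.40, 1.89 and 1.60 CPM against 2.05, 5.96 and 2.60 CPM, all LPS libraries higher, but the log2 fold change of 1.09 did not pass (adjusted p = 0.0716; without WT LPS 24 h library 1 it was 1.36, adjusted p = 0.0329). Hspa1a did not pass at 24 h. The sum of Hspa1a and Hspa1b passed in both genotypes, at 1.00 (SE 0.39, adjusted p = 0.0388) in WT and 1.54 (SE 0.36, adjusted p = 0.000389) in KO. In WT the sums were 2.91, 7.45 and 3.37 CPM after LPS against 2.25, 2.40 and 2.19 CPM in Control, and without WT LPS 24 h library 2, the high value, the log2 fold change was 0.46 (adjusted p = 0.442). The WT call was also lost without WT Control 24 h library 1 (1.00, adjusted p = 0.0732), 2 (1.05, adjusted p = 0.0744) or 3 (0.96, adjusted p = 0.11), while the KO call held without any single library (1.19 to 2.12). Dnajb1 passed in KO alone, from 25.3, 19.9 and 22.1 CPM to 29.7, 30.3 and 29.1 CPM with no overlap (0.41, SE 0.16, adjusted p = 0.0349). That call was lost without KO Control 24 h library 2 (0.34) or 3 (0.41) and without KO LPS 24 h library 1 (0.42), 2 (0.40) or 3 (0.43), with adjusted p = 0.0569 to 0.146, and with library totals and no scaling factor (0.34, adjusted p = 0.084).

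Marker levels also differed at 24 h. The 12 proliferation genes summed to 169 to 217 CPM in WT LPS 24 h and 203 to 241 CPM in KO, against 510 to 542 CPM and 534 to 608 CPM in Control 24 h. The 9 granulocyte precursor markers, which include the secreted Lcn2, summed to 346 to 439 CPM and 330 to 401 CPM, against 62.5 to 68.3 CPM and 146 to 230 CPM. Immediate early genes were at 483 to 518 CPM in WT and 543 to 581 CPM in KO, against 848 to 886 CPM and 896 to 957 CPM, and macrophage markers at 18618 to 22927 CPM and 13560 to 13707 CPM, against 16701 to 17532 CPM and 11239 to 11836 CPM. Fibroblast markers were at 0.175 to 2.41 CPM in WT LPS against 2.86 to 47.5 CPM, and dendritic markers at 5.53 to 8.95 CPM in KO LPS against 11.2 to 12.99 CPM. The part of these groups in the result was not tested. WT LPS 24 h library 2 stood apart from its group, where chi-square divided by its degrees of freedom was 7.48 and 6.87 against the other libraries and 3.21 between those.

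**Figure D3:**
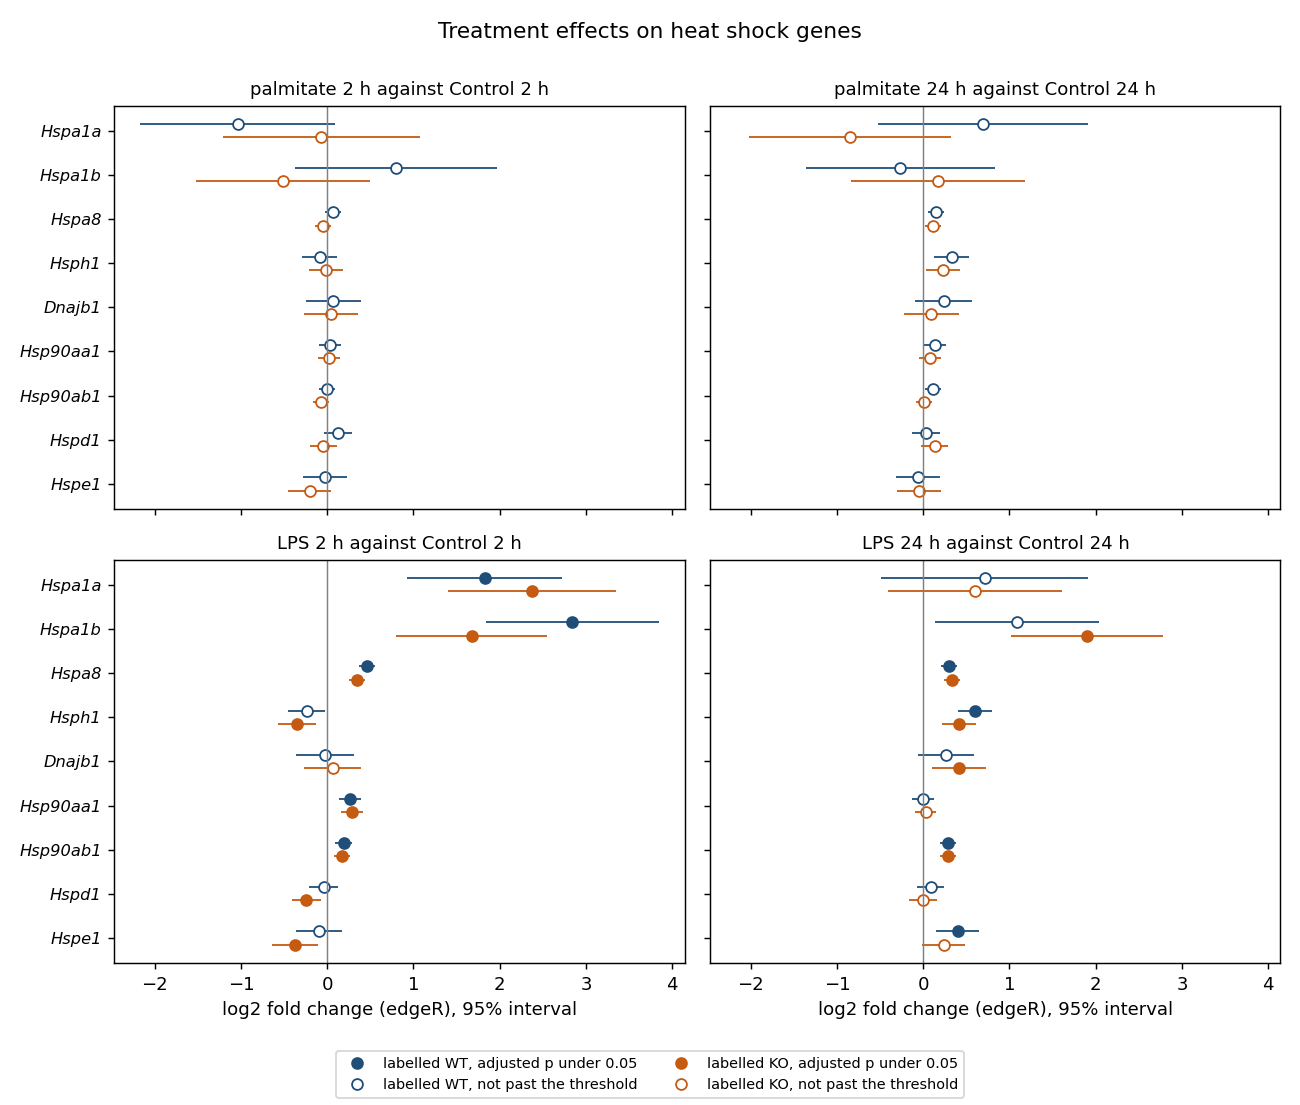
Log2 fold change of each member (x axis) under palmitate and LPS against Control of the same time, with 95% intervals from the fit's standard error, WT in blue and KO in orange, filled where the adjusted p was under 0.05. No point is filled in the 2 palmitate panels, and the LPS panels show Hspa1a and Hspa1b farthest from 0 at 2 h and Hsph1 on opposite sides of 0 at 2 and 24 h.

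The difference between the LPS effect at 24 h and at 2 h was tested directly. In WT, 3 of 9 members passed, against 32.6% of all genes, and in KO the same 3 of 9, against 33.4%. The LPS effect on Hsph1 was higher at 24 h than at 2 h by 0.84 on the log2 scale in WT (SE 0.15, adjusted p = 9.49e-06) and by 0.77 in KO (SE 0.15, adjusted p = 4.11e-05), and held without any single library. That on Hspe1 was higher at 24 h by 0.50 in WT (SE 0.19, adjusted p = 0.034) and by 0.61 in KO (SE 0.19, adjusted p = 0.00886). The effect on Hsp90aa1 was lower at 24 h, by a log2 difference of -0.26 in WT (adjusted p = 0.0228) and in KO (adjusted p = 0.0256). Leaving out single libraries kept the Hsp90aa1 call in 6 of 12 fits in each genotype (-0.30 to -0.22 in WT, -0.31 to -0.16 in KO, with -0.16 and adjusted p = 0.185 without KO LPS 24 h library 2) and the Hspe1 call in 5 of 12 fits in WT (0.46 to 0.55) and 12 of 12 in KO (0.39 to 0.87). Without KO LPS 2 h library 1, which held the low Hspe1 value, the difference in KO was 0.39 (adjusted p = 0.0375). With library totals and no scaling factor Hsp90aa1 was at -0.16 in WT (adjusted p = 0.187) and -0.15 in KO (adjusted p = 0.206), and fitted on only the libraries compared Hspe1 in KO was at 0.62 (adjusted p = 0.0553). The KO call of Hsp90aa1 was also lost with no filter on low counts. For Hspa1b in WT the difference was -1.75 (SE 0.73, adjusted p = 0.0587), which passed without WT Control 2 h library 1 (-2.09, adjusted p = 0.0448) or WT LPS 24 h library 2 (-2.34, adjusted p = 0.0131). For Hspa1a in KO it was -1.77 (SE 0.73, adjusted p = 0.0546), which passed without KO LPS 2 h library 1 (-2.02, adjusted p = 0.0299) or KO Control 24 h library 2 (-2.07, adjusted p = 0.0321). Differences in the effect of palmitate over time passed for no member, against 0.241% of all genes in WT and 0.172% in KO.

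Palmitate changed no member past the threshold. At 2 h, 0 of 9 passed in WT, against 0.275% of all genes, and 0 of 9 in KO, against 0.112%. At 24 h, 0 of 9 passed in WT, against 0.852%, and 0 of 9 in KO, against 0.877%. Hsph1 came nearest in WT, where it was at 67.5, 75.0 and 65.3 CPM after palmitate for 24 h against 48.0, 56.2 and 59.0 CPM in Control. In KO it was at 77.2, 69.5 and 70.8 CPM against 66.3, 56.0 and 64.0 CPM. The groups did not overlap in either genotype, and the log2 fold change was 0.33 (95% interval 0.13 to 0.53, adjusted p = 0.145) in WT and 0.23 (0.03 to 0.42, adjusted p = 0.539) in KO. Hspa8 was at 1625, 1476 and 1532 CPM in WT palmitate 24 h and at 1479, 1573 and 1468 CPM in KO, also above all Control 24 h libraries of its genotype (0.14, adjusted p = 0.194, and 0.11, adjusted p = 0.5). With DESeq2 the WT difference of Hspa8 passed (adjusted p = 0.0363). For the inducible HSP70 genes the precision was low, with 95% intervals of -0.53 to 1.91 for Hspa1a and -1.36 to 0.83 for Hspa1b in WT at 24 h. At 2 h Hspa1a was at 0.536, 0.760 and 0.713 CPM in WT palmitate, below the 1.35, 1.65 and 1.19 CPM of Control, which at -1.04 on the log2 scale did not pass (SE 0.58, adjusted p = 0.711). Intervals this wide do not decide whether these 2 genes changed under palmitate. For Hsp90aa1 and Hsp90ab1 the WT intervals at 24 h were 0.01 to 0.26 and 0.02 to 0.21.

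Culture without treatment was compared with Control 0 h. In WT at 2 h, 2 of 9 members passed, against 14.3% of all genes, and both were lower. Hspa8 went from 1629, 1556 and 1639 CPM to 1527, 1447 and 1401 CPM (log2 fold change -0.14, SE 0.05, adjusted p = 0.0367) and Hspd1 from 114, 119 and 121 CPM to 103, 105 and 88.2 CPM (-0.26, SE 0.08, adjusted p = 0.0195), without overlap. Leaving out single libraries kept Hspa8 in 2 of 6 fits (-0.17 to -0.11) and Hspd1 in 3 of 6 (-0.31 to -0.18); without WT Control 2 h library 3, where Hspd1 was lowest, its adjusted p was 0.202. In WT at 24 h, 1 of 9 passed, against 12.1%: Hspa8 at 1405, 1374 and 1414 CPM (-0.20, SE 0.05, adjusted p = 0.00226), in 6 of 6 such fits. Neither call of Hspa8 held with library totals and no scaling factor, where it was at -0.10 at 2 h (adjusted p = 0.111) and at -0.10 at 24 h (adjusted p = 0.135), nor did that of Hspd1 (-0.23, adjusted p = 0.0514). In KO, 0 of 9 passed at 2 h, against 12.1%, and 0 of 9 at 24 h, against 8.17%. There Hspa1b stood at 6.48, 2.05 and 5.04 CPM at 0 h, and its log2 fold changes of -1.04 at 2 h (adjusted p = 0.144) and -1.32 at 24 h (adjusted p = 0.0745) passed without KO Control 0 h library 2 (-1.39, adjusted p = 0.0411, and -1.68, adjusted p = 0.0185), and that at 24 h also with DESeq2 (-1.34, adjusted p = 0.0471). In the WT libraries the immediate early genes stood at 758 to 783 CPM at 0 h, 1115 to 1180 CPM at 2 h (9 of 10 higher) and 848 to 886 CPM at 24 h, and granulocyte precursor markers at 49.98 to 59.9 CPM, 20.8 to 37.5 CPM and 62.5 to 68.3 CPM. Macrophage markers were at 14801 to 15319 CPM at 0 h and 16701 to 17532 CPM at 24 h, fibroblast markers at 0.517 to 0.883 CPM at 0 h and 1.16 to 58.3 CPM at 2 h, and dendritic markers at 2.12 to 2.89 CPM, 2.97 to 5.58 CPM and 4.09 to 6.62 CPM. Their part in the result was not tested. Whether the change from 0 h differed between genotypes was tested as well: at 2 h, 1 of 9 passed, against 4.77% of all genes, Hspa8 with a KO minus WT difference of 0.24 (SE 0.07, adjusted p = 0.0244), which was kept in 3 of 12 fits without a library (0.21 to 0.27). At 24 h, 0 of 9 passed, against 1.83%.

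The libraries labelled KO and WT were compared within each condition. At Control 0 h, 2 of 9 members passed, against 12.5% of all genes. Hspa8 was at 1418, 1447 and 1419 CPM in KO and at 1629, 1556 and 1639 CPM in WT, without overlap (log2 difference -0.17, SE 0.05, adjusted p = 0.0124). The same WT libraries were the reference of the Hspa8 calls over time in WT, so these calls are not independent. Hspa1b was at 6.48, 2.05 and 5.04 CPM in KO and at 3.44, 1.58 and 0.397 CPM in WT, overlapping groups (1.38, SE 0.46, adjusted p = 0.0418). The sum of Hspa1a and Hspa1b did not pass there (0.93, adjusted p = 0.0887). Without WT Control 0 h library 3, which held 3 counts, Hspa1b was at 0.85 (adjusted p = 0.29), and it also missed the threshold without WT Control 0 h library 2 (1.32) and without KO Control 0 h library 1 (1.05) or 3 (1.30). Without WT Control 0 h library 1 it was at 2.21. Hspa8 missed it without WT Control 0 h library 3 (-0.16, adjusted p = 0.0586) and without KO Control 0 h library 1 (-0.16, adjusted p = 0.0683) or 3 (-0.16, adjusted p = 0.0669), and with library totals and no scaling factor it was at -0.10 (adjusted p = 0.126). Fitted on only these 6 libraries, neither Hspa1b (1.39, adjusted p = 0.0836) nor Hspa8 (-0.17, adjusted p = 0.0598) passed. Several marker sums separated the same libraries. Fibroblast markers were at 43.3 to 70.0 CPM in KO Control 0 h and 0.517 to 0.883 CPM in WT, granulocyte precursor markers at 82.3 to 90.4 CPM and 49.98 to 59.9 CPM, and macrophage markers at 10638 to 14445 CPM and 14801 to 15319 CPM. The macrophage sum includes Lyz2, the locus that carries Cre, which alone stood at 5377 to 8766 CPM in KO and 10146 to 10238 CPM in WT (TMM-scaled). A lower macrophage sum in KO is therefore no measure of fewer macrophages. B cell markers were at 3.64 to 7.43 CPM in KO and 7.90 to 12.5 CPM in WT, and T or NK cell markers at 0.727 to 2.11 CPM and 0.177 to 0.646 CPM. Their part in the result was not tested.

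In the other 6 conditions 0 of 9 members passed between genotypes. The share of all genes that passed was 0.49% at Control 2 h, 0.146% at palmitate 2 h, 0.465% at LPS 2 h, 0.12% at Control 24 h, 0.0688% at palmitate 24 h and 0.146% at LPS 24 h. For the abundant chaperones the intervals were narrow. At LPS 2 h the KO minus WT log2 difference was -0.04 for Hspa8 (95% interval -0.14 to 0.05), -0.03 for Hsp90aa1 (-0.16 to 0.09) and -0.01 for Hsp90ab1 (-0.11 to 0.08). For Hspa1b it was 0.09 (-0.71 to 0.89) and for Hspa1a -0.10 (-0.92 to 0.72), intervals several times as wide. At LPS 24 h Hspa1a stood at 0.856, 1.49 and 0.765 CPM in WT and at 1.79, 1.68 and 1.61 CPM in KO, and Hspa1b was higher in KO by 0.92 (0.12 to 1.72, adjusted p = 0.478). The sum of both did not overlap between genotypes at LPS 24 h but did not pass (0.88, SE 0.33, adjusted p = 0.37).

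The difference of the treatment effects between genotypes passed for no member. The share of all genes that passed was 0% for palmitate at 2 h, 0% for palmitate at 24 h, 0% for LPS at 2 h and 0.0086% for LPS at 24 h. At an unadjusted p under 0.05 edgeR counted 486, 411, 810 and 628 of 11624 genes. For LPS at 2 h the KO minus WT difference of the effect was 0.55 for Hspa1a (95% interval -0.79 to 1.89), -1.17 for Hspa1b (-2.53 to 0.20) and -0.11 for Hspa8 (-0.25 to 0.02). The members that passed in KO alone at 2 h were not shown to differ between genotypes: the difference was -0.12 for Hsph1 (-0.42 to 0.19), -0.20 for Hspd1 (-0.44 to 0.03) and -0.27 for Hspe1 (-0.65 to 0.10). The same held at 24 h for Hspa1b (0.81, -0.52 to 2.14), Dnajb1 (0.15, -0.30 to 0.60) and Hspe1 (-0.16, -0.52 to 0.19).

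Other chaperone genes were read from fixed lists with the same test. Beyond the 3 genes with the smallest adjusted p per direction and comparison over these lists together, the genes named from them were chosen after their values were seen. Of the other HSP70, HSP110 and HSP40 genes, a list not limited to the cytosol, 17 of 19 were tested. At LPS 2 h 8 rose and 0 fell in WT, and 7 rose and 1 fell in KO, against 23.1% and 23.9% of all genes. The median log2 fold changes were 0.17 and 0.14, beside -0.01 over all genes. The J-domain partners Dnaja2 (302 ± 5.64 against 179 ± 13.8 CPM in WT, log2 fold change 0.75, adjusted p = 7.37e-13) and Dnajb6 (219 ± 10.4 against 126 ± 5.00 CPM, 0.80, adjusted p = 1.35e-11) led in WT and were at 0.67 and 0.81 in KO. At 24 h the list was split: 3 rose and 3 fell in WT, and 2 rose and 2 fell in KO. These shares lay below those of all genes at 24 h (39.5% and 40.9%). Dnajb14, an HSP40 of the endoplasmic reticulum (ER) membrane, fell by 1.07 on the log2 scale in WT and by 1.05 in KO, and Dnajb4 fell by 0.84 and 0.97, although Dnajb4 had risen at 2 h (0.69 and 0.73). The genes that rose at 24 h, named after their values were seen, included Dnaja1, a main HSC70 partner (0.62 and 0.60), which was also higher at 2 h (0.73 and 0.57).

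Of 27 HSP70 and HSP90 cochaperones, 2 rose and 0 fell at LPS 2 h in WT, and 4 rose and 1 fell in KO. Stip1, also called HOP, which joins HSP70 to HSP90, was at 118 ± 10.9 CPM in WT LPS 2 h against 71.2 ± 1.95 CPM in Control (log2 fold change 0.73, adjusted p = 1.87e-09) and rose by 0.78 in KO. The other cochaperone that rose in WT, named after its values were seen, was the kinase adaptor Cdc37 (0.26), and the cochaperone that fell in KO was Bag4 (-0.57). At 24 h 7 rose and 4 fell in WT, and 8 rose and 3 fell in KO. At 2 h these shares lay below those of all genes (23.1% and 23.9%), and at 24 h near them (39.5% and 40.9%). The nucleotide exchange factor Bag1 rose by 0.77 and 0.81, while Bag3, known for its role in chaperone-assisted autophagy, fell by 0.55 in WT and 0.48 in KO, and the immunophilin Fkbp5 by 0.89 and 1.20. Bag3 was also the only gene of these lists to pass under palmitate, at 24 h in WT, where it was at 121 ± 6.90 CPM against 93.7 ± 6.51 CPM (0.36, adjusted p = 0.0394).

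The cytosolic chaperonin TRiC, which folds actin and tubulin, had 4 of 8 subunits higher at LPS 2 h in WT and 2 of 8 in KO, then 6 of 8 and 4 of 8 at 24 h, with 0 lower. The shares of all genes that passed were 23.1% in WT and 23.9% in KO at 2 h, and 39.5% and 40.9% at 24 h. The TRiC share in KO at 2 h was near that of all genes. At 2 h the higher subunits were Tcp1 (0.35), Cct6a (0.28), Cct2 (0.27) and Cct5 (0.22) in WT and Cct6a (0.29) and Tcp1 (0.27) in KO, named after their values were seen. Of 6 prefoldin subunits, which pass clients to TRiC, 0 passed at 2 h in either genotype, and Pfdn1 (0.79) and Pfdn6 (0.68) rose at 24 h in WT. Among 16 other mitochondrial chaperones and proteases, 1 rose and 1 fell at LPS 2 h in WT, 0 rose and 2 fell in KO, and at 24 h 4 rose and 1 fell in WT and 5 rose and 1 fell in KO, shares below those of all genes in each of the 4 comparisons. The mitochondrial HSP70 gene Hspa9 rose by 0.35 in WT and by 0.32 in KO at 24 h, and at 2 h in WT by 0.19. The genes that fell at 2 h were the protease subunit Clpp in WT (-0.63) and the iron-sulfur cochaperone Hscb (-0.73) and Grpel2 (-0.51) in KO.

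Of 5 regulators of the heat shock response, Ier5, an HSF1 partner, rose at LPS 2 h in WT (0.45) and KO (0.59), Hsf2 rose in KO (0.59) and Hsf4 fell in KO (-1.10), all named after their values were seen. Hsf4 was near the floor, at 2.44 ± 0.73 CPM against 5.15 ± 1.28 CPM in Control (edgeR's quasi-likelihood test, adjusted p = 0.0468). Hsf1 itself passed in none of the LPS comparisons. Hsbp1, which binds HSF1, rose at 24 h (0.32 in WT and 0.44 in KO), when Hsf4 was also lower in KO (-1.52, 1.19 against 3.43 CPM). Only 1 of 6 small heat shock genes passed the filter on low counts, and it was called in none of the LPS comparisons. Chaperones of the ER were listed for comparison: 1 of 16 passed at LPS 2 h in each genotype, the ER HSP70 gene Hspa5 (0.52 and 0.58), whereas 13 of 16 rose and 0 fell at 24 h in WT and 10 of 16 rose and 0 fell in KO, with median log2 fold changes of 0.51 and 0.35 beside -0.01 over all genes. The shares of all genes that passed were 23.1% in WT and 23.9% in KO at 2 h, and 39.5% and 40.9% at 24 h. Calr, the ER lectin calreticulin, rose most clearly at 24 h, by 0.73 in WT and 0.64 in KO. In the KO against WT comparison at Control 0 h, Hspa8 was lower and 12.5% of all genes passed. There 9 of 16 ER chaperones were lower, among them Calr (-0.50), Pdia4 (-0.45) and Canx (-0.27), and 1 was higher. That 1 was Serpinh1, a collagen chaperone, at 6.84 ± 1.24 CPM in KO and 0.173 ± 0.181 CPM in WT.

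**Figure D4:**
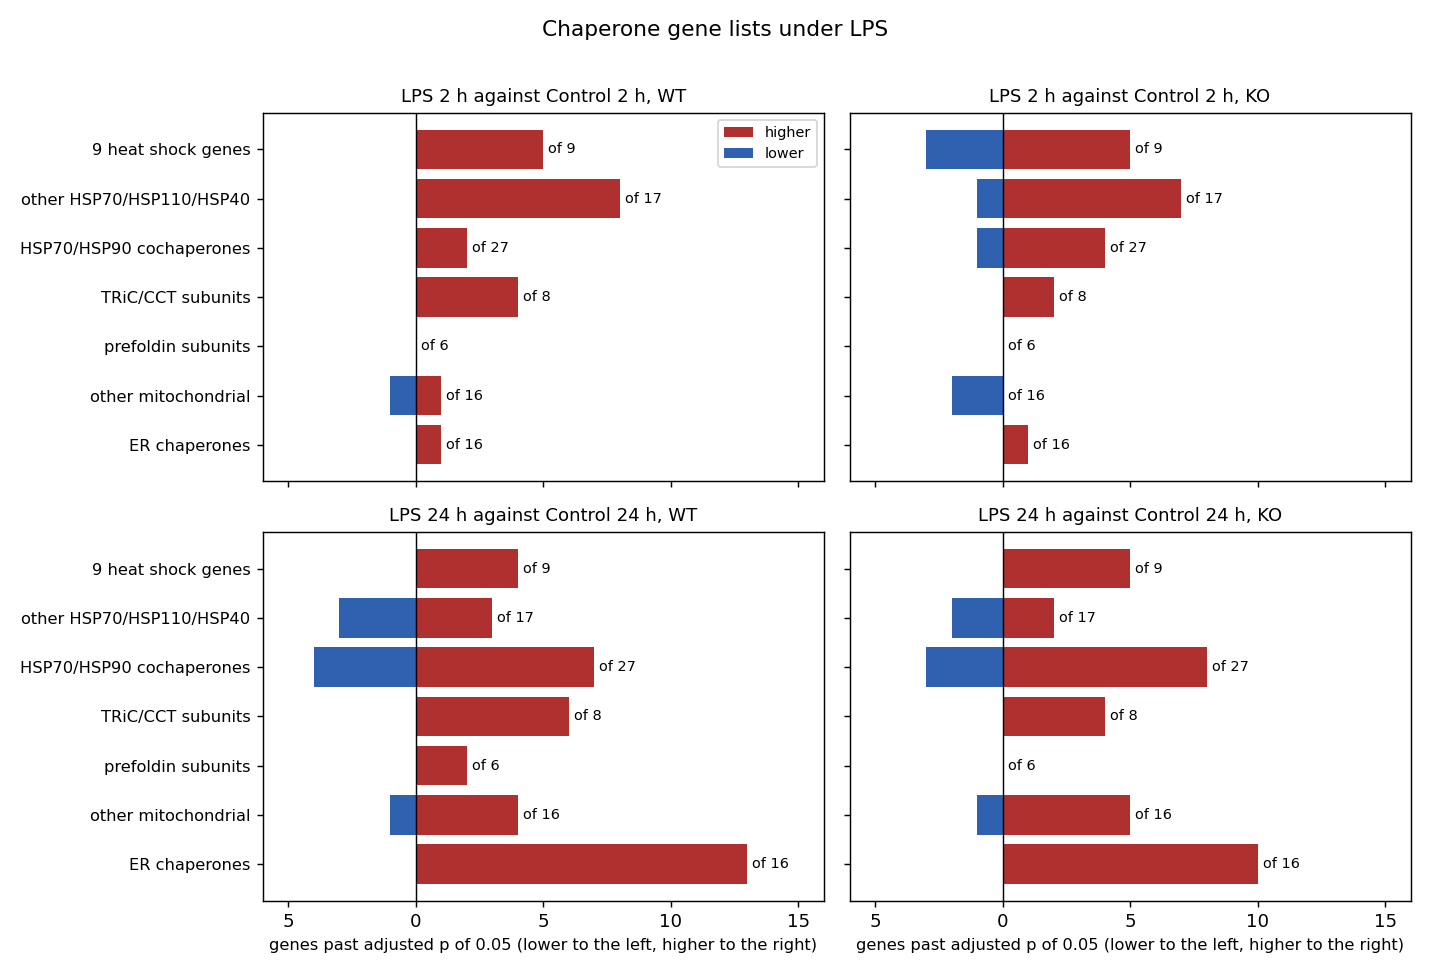
Number of genes past an adjusted p of 0.05 (x axis, higher to the right in red, lower to the left in blue) in the 9 heat shock genes and 6 other chaperone lists (y axis, with the number tested), for LPS against Control at 2 h (top) and 24 h (bottom). At 2 h the list of other HSP70, HSP110 and HSP40 genes holds 8 higher genes in WT and 7 in KO, and at 24 h the ER list holds 13 of 16 in WT and 10 of 16 in KO.

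The members did not share a single pattern over the 14 group means. As a description over points that share libraries and scaling, the Pearson correlation of log2 group means was 0.85 between Hspa1a and Hspa8, 0.77 between Hspa1b and Hspa8, 0.74 between Hspa8 and Hsp90aa1, and 0.74 between Hsph1 and Hspe1. It was -0.74 between Hspa1a and Hspd1 and 0.59 between Hspd1 and Hspe1, whose start regions adjoin. Within groups, over deviations of the 42 libraries, it was 0.61 between Hsp90aa1 and Hsp90ab1, 0.26 between Hspd1 and Hspe1 and 0.10 between Hspa1a and Hspa1b. Over the group means Hspa1a and Hspa1b were at 0.73, and their within-group value rests on low counts. Among genes averaging 10 CPM or more, those closest in pattern over the 14 group means were the kinase gene Pim1 (r = 0.966), Mapkapk2 (0.949) and Pcbp1 (0.946) for Hspa1a and Daam1 (0.935), Nrp2 (0.935) and Ube2j2 (0.927) for Hspa1b. For Hspa8 they were Igsf8 (0.968), Lcp2 (0.959) and Slfn2 (0.956), and for Hsph1 Ppargc1b (0.932), Olfml3 (0.931) and Def8 (0.927). For Hsp90ab1 they were the proteasome gene Psma4 (0.967), Zdhhc5 (0.961) and Msn (0.959), and for Hsp90aa1 Rrs1 (0.910), Phrf1 (0.909) and Slc25a17 (0.902). Hspe1 was closest to Prepl (0.938), Armc7 (0.926) and Rinl (0.918), Hspd1 to Mtfr1 (0.896), Mkrn2 (0.888) and Adh5 (0.879), and Dnajb1 to Fam3a (0.811), Eng (0.809) and Ids (0.807).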

How the data were processed

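RNA of BMDM was sequenced in 42 libraries (14 groups of 3). The authors deposited a table of raw counts per Ensembl gene, and these counts were used as deposited. By the study's methods, STAR aligned the reads to mm10 and produced the counts. The submitters' processing notes name STAR 2.7.3a, fastp 0.19.11, mm10 and also mm9, whose role is not given in the sources used here, and neither are the gene annotation and strand setting of the counting. Of 37310 gene identifiers, 32620 had a symbol in GENCODE M21 (GRCm38), from which positions and exon lengths were taken. Promoter windows came from RefSeq (GRCm38.p6).

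Genes were filtered with filterByExpr (11624 kept) and scaled by TMM in edgeR 4.0.16 (limma 3.58.1, R 4.3.3). A quasi-likelihood negative binomial model with 1 mean per group over all 42 libraries (28 residual degrees of freedom) was tested in 29 comparisons, with Benjamini-Hochberg adjustment over all genes tested and a threshold of 0.05. The standard error is the absolute log2 fold change divided by the square root of F, and intervals are log2 fold change ± normal 95% limits of that error, not adjusted for the number of genes. Figures were drawn with matplotlib 3.10.9. The steps were tested on simulated counts in which a small set of genes changed in 1 group. Changes as small as those of the members other than Hspa1a and Hspa1b were not simulated. Replicate pairs of all groups differed beyond sampling noise (chi-square per degree of freedom 1.93 to 9.32 over 42 pairs), so each library was counted once. Depth was 2848793 to 7743442 counts per library, and limits of 3 counts cover counting error only.

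The members and gene lists were chosen with earlier results of these data known. All 9 members are named in each family of comparisons, and from the lists together at most 3 genes per direction and comparison with the smallest adjusted p and a mean of at least 1 CPM, while other list genes named were chosen after their values were seen. Alternatives were RLE scaling, no filter on low counts, only the libraries compared, DESeq2 1.42.0, leaving out each library, summing Hspa1a and Hspa1b (and, added after seeing the data, leaving out each library of that sum in the LPS comparisons), a prior count of 0.5 in place of 2 for pattern likeness, and, also added then, library totals without a scaling factor. Libraries are numbered by column order within a group. No batch is named in the labels.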

Additional observations from a re-analysis of the deposited data

Results flagged for a closer look

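The results below are tests of a difference between effects that passed the threshold, given with edgeR's quasi-likelihood adjusted p. The LPS effect differed between 24 h and 2 h for 3 members in both genotypes. This share of the members was near that of all genes, of which 32.6% passed in WT and 33.4% in KO. For Hsph1 the effect at 24 h minus that at 2 h was 0.84 on the log2 scale (SE 0.15, adjusted p = 9.49e-06) in WT and 0.77 (SE 0.15, adjusted p = 4.11e-05) in KO, and it held without any single library. For Hspe1 it was 0.50 (SE 0.19, adjusted p = 0.034) in WT and 0.61 (SE 0.19, adjusted p = 0.00886) in KO. The Hspe1 call was kept without single libraries in 5 of 12 fits in WT and 12 of 12 in KO (0.39 to 0.87), and was lost in KO with only the libraries compared (adjusted p = 0.0553). For Hsp90aa1 it was -0.26 (SE 0.09, adjusted p = 0.0228) in WT and -0.26 (SE 0.09, adjusted p = 0.0256) in KO, kept in 6 of 12 such fits in each genotype and lost with library totals and no scaling factor (-0.16 and -0.15). In KO the Hsp90aa1 call was also lost with no filter on low counts. The change of Hspa8 from Control 0 h to Control 2 h was higher in libraries labelled KO than in those labelled WT by 0.24 (SE 0.07, adjusted p = 0.0244), kept in 3 of 12 such fits and lost with no filter on low counts (adjusted p = 0.0888). In this test 4.77% of all genes passed. It shares the WT Control 0 h libraries with the Hspa8 calls over time in WT and between genotypes at Control 0 h, so these calls are not independent.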

How the results depend on the processing

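No paired analysis was possible because the columns of the count table carry no replicate numbers. Of 34 member calls over 29 comparisons, 18 were kept under all 5 alternatives that change the scaling, filter, tool or libraries fitted, 21 in every fit that left out a library, and 16 in both. Counts of members that moved were few, and the cause was not tested. From Control 0 h to 2 h in WT (2 members) the count was 1 with RLE scaling, 1 with no filter on low counts and 0 with library totals, and at 24 h in WT (1 member) it was 0 with library totals. DESeq2 called 1 member from 0 to 24 h of Control in KO and 1 under palmitate 24 h in WT (0 in each before), and 5 rather than 3 for the LPS effect over time in WT. Between genotypes at Control 0 h (2 members) the count was 1 with no filter, 1 with library totals and 0 with only the libraries compared, and for the genotype difference of the change to Control 2 h (1 member) it was 0 with no filter. Only Hsp90ab1 in KO at LPS 2 h reversed, at -0.0026 with library totals against 0.17. Without single libraries the counts ran from 0 to 2 for Control 2 h in WT and for KO against WT at Control 0 h, 0 to 1 for Control 2 h and 24 h in KO and for the genotype difference at Control 2 h, 5 to 8 for LPS 2 h in KO, 4 to 5 for LPS 24 h in each genotype, and 1 to 5 in WT and 2 to 3 in KO for the LPS effect over time. Under RLE scaling the highest group stayed the same for 9 of 9 members, and with library totals for 6 of 9. Counts of Hspa1a and Hspa1b were low, at 1 to 53 a library. Of 261 member values per setting, 27, all of Hspa1a or Hspa1b, could not be fitted with only the libraries compared, since these genes missed the filter there, and DESeq2 gave no adjusted p for 18.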
